A study of Mus musculus with 18 samples.

Results

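In all, 10 genes of the basement membrane and of the collagens that anchor it were followed in RNA-seq of sorted mouse heart cells: Col4a1, Col4a2, Lamc1, Nid1, Hspg2, Col15a1, Col18a1, Col6a1, Col6a2 and Col6a3. They were chosen by name, by mapping the Ensembl identifiers of the count tables to mouse symbols, and are 10 of 53342 identifiers; all 10 had counts high enough to be tested in every library. The cells were Thy1+ cells, labelled Thy1+ HE or Thy1+HE-, of hearts of KK/HlJ, C3H/HeJ and C57BL/6 mice (the last labelled B6 in the sample names). The labels do not spell out HE; Thy1 is a surface marker by which heart fibroblasts are often sorted. Mice carried implanted pumps with isoproterenol (ISO), which stimulates beta-adrenergic receptors and drives cardiac hypertrophy and fibrosis, or with saline (sham). Collection of the ISO groups followed implantation by 14 or 21 days; no day is given for sham, and the 2 sham libraries of a strain are set against both ISO groups. No genotype other than the strain, and no age, is given. Each of the 9 groups (ISO day 14, ISO day 21 and sham in each strain) has 2 libraries. Whether the 2 come from different mice or from pooled mice is not stated, so the p-values reflect library-to-library spread that may be only technical.

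Basement membranes are thin sheets of matrix under epithelia and endothelia and around muscle cells, fat cells and Schwann cells. Laminins, trimers of an alpha, a beta and a gamma chain, polymerise at the cell surface; collagen IV forms a second, covalently crosslinked network; nidogens and the proteoglycan perlecan join both networks. Collagens XV and XVIII carry heparan or chondroitin sulfate chains and sit at the outer face of the sheet, and collagen VI forms beaded microfibrils that link the sheet to the fibrillar collagens of the interstitium. Fibroblasts are a main source of collagen VI in the heart, and make several basement membrane components although they are not themselves enclosed by a basement membrane.

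The collagen IV genes show an arrangement that bears on how their counts are read. Col4a1 (ENSMUSG00000031502) lies on the minus strand at chr8:11198423-11312826 and Col4a2 (ENSMUSG00000031503) on the plus strand at chr8:11312805-11449287 of mm10, so that the pair runs head to head and overlaps from 11312805 to 11312826. The strand setting of the counting is not given in the sources used here, so reads in the overlap could be counted for either gene. The RefSeq promoter windows (GRCm38.p6, 250 bases before to 50 after the start site) are chr8:11312777-11313076 on the minus strand for Col4a1 and chr8:11312555-11312854 on the plus strand for Col4a2. They are shown because they overlap: the 78 bases in capitals, of 300 in each window, are the same DNA read from opposite strands.
Col4a1: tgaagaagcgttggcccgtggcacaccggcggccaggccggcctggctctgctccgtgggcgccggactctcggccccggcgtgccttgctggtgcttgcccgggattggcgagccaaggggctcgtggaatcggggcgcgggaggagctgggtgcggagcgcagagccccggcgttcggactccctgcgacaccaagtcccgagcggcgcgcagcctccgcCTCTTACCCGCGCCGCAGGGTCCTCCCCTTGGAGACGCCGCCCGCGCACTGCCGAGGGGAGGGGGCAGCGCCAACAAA
Col4a2: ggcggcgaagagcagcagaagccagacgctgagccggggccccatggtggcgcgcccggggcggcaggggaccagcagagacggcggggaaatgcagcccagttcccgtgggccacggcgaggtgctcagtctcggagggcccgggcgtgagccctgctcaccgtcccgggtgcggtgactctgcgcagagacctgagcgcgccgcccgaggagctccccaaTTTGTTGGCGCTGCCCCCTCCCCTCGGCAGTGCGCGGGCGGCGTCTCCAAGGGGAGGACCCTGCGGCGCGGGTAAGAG
Of the other members, Col6a1 (ENSMUSG00000001119, minus strand, chr10:76708792-76726168), Col6a2 (ENSMUSG00000020241, minus strand, chr10:76595762-76623630) and Col18a1 (ENSMUSG00000001435, minus strand, chr10:77052178-77166548) are neighbours on chromosome 10. Col6a3 (ENSMUSG00000048126, chr1:90765923-90843971) and Lamc1 (ENSMUSG00000026478, chr1:153218922-153332786) are on the minus strand of chromosome 1. Col15a1 (ENSMUSG00000028339, chr4:47208161-47313167) and Hspg2 (ENSMUSG00000028763, chr4:137468769-137570630) are on the plus strand of chromosome 4, and Nid1 (ENSMUSG00000005397, chr13:13437551-13512269) is on the plus strand of chromosome 13. RefSeq windows of the same size were found for 9 of the 10 genes, in 11 windows; Lamc1 was not matched. A GC box (GGGCGG, searched on both strands) was in 7 of the 11 windows, from 6 of these 9 genes, against 35.7% of all 32851 RefSeq windows. It occurred once in the window of Col4a1 and 3 times in that of Col4a2. A CCAAT box was in 4 of the 11 windows, from 4 genes, with 37.4% of all windows holding one. The TATA box TATAAA was in none of the 11, against 13.6% of all windows. Matches are letters only and were not tied to any factor.

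Library totals ran between 7230741 and 26280685 counts, and the 10 genes together took 1.16% to 2.98% of them; every gene had at least 884 counts in every library, so counting error is small beside the spread between libraries. Fibroblast markers were all present (10 of 10 above 3 counts in each library), with Thy1 at 332 CPM, Pdgfra at 579 CPM and Tcf21 at 354 CPM on average (CPM, counts scaled to a library total that is the same for all). Endothelial markers summed to between 551 and 2141 CPM and pericyte and smooth muscle markers to between 1543 and 7820 CPM, against 77221 to 120329 CPM for the fibroblast markers; macrophage markers summed to between 3.80 and 207 CPM, with 1 to 9 of 10 above 3 counts. Replicate 1 of KK/HlJ ISO day 14, of KK/HlJ ISO day 21, of KK/HlJ sham and of C3H/HeJ sham had the 4 lowest median correlations with the other libraries across genes, 0.811, 0.848, 0.846 and 0.839, against 0.862 to 0.912 in the other 14. Postn, a matricellular gene of activated fibroblasts, was higher with ISO by 2.17 log2 units (SE 0.21, edgeR adjusted p = 1.493e-05), which shows the size of change that passed the test in these libraries.

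Levels of the 10 genes were high and differed widely from each other. Per kilobase of each gene's longest coding transcript, Col6a2 was highest at 1098 ± 323 CPM per kilobase and Col6a1 next at 964 ± 256 (SD, n = 18 libraries), followed by Col15a1 at 553 ± 162. Lamc1 averaged 298 ± 98.2, Col4a1 257 ± 78.8, Nid1 157 ± 56.5, Hspg2 153 ± 53.7 and Col4a2 141 ± 41.3 CPM per kilobase (SD, n = 18 each). Col6a3 averaged 73.2 ± 30.8 and Col18a1 22.5 ± 5.18 CPM per kilobase (SD, n = 18 each). Steps of this order that held in all 18 libraries were Col6a1 over Col15a1, Col15a1 over Lamc1, Col4a2 over Col6a3 and Col6a3 over Col18a1. Neighbours that changed places between libraries were Col6a2 and Col6a1 (Col6a2 higher in 15 of 18), Col4a1 and Nid1 (Col4a1 higher in 17 of 18), Lamc1 and Col4a1 (Lamc1 higher in 12 of 18), Nid1 and Hspg2 (Nid1 higher in 13 of 18), and Hspg2 and Col4a2 (Hspg2 higher in 12 of 18). The order of the collagen VI pair also depends on the length used: with the union of all exons, which for Col6a2 counts 8326 bases in place of 4653, Col6a1 was above Col6a2 in 18 of 18 libraries. The collagen VI heterotrimer takes one chain of each kind, and Col6a3, its long chain, stood at 0.0454 to 0.127 of the Col6a1 level per kilobase. In CPM without length, Col6a2 ranked 8 and Col6a1 14 of 15762 tested genes by mean level, Col15a1 24, Lamc1 39, Hspg2 42, Col4a1 60, Nid1 124, Col4a2 133, Col6a3 174 and Col18a1 1356.

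**Figure D1:**
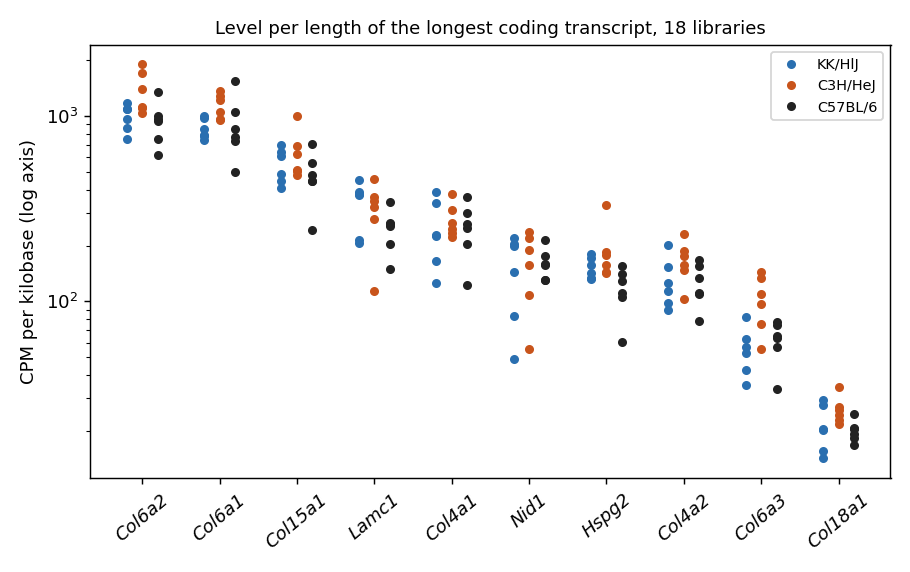
Level of each gene per kilobase of its longest coding transcript (CPM per kilobase, log axis), 1 point per library, coloured by strain with KK/HlJ left, C3H/HeJ in the middle and C57BL/6 right. The genes span from a mean of 1098 for Col6a2 to 22.5 for Col18a1, and neighbours such as Nid1 and Hspg2 overlap.

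Across the 18 libraries the SD of log2 CPM was between 0.33 for Col18a1 and 0.66 for Nid1, where the median over the 10047 tested genes with a mean of at least 5 CPM was 0.61. Single libraries carried much of this. C57BL/6 ISO day 21 replicate 1 was the lowest of all libraries for 7 of the 10 genes and under the median for all 10. C3H/HeJ sham replicate 2 was the highest for 6 genes. In 3 groups (KK/HlJ ISO day 21, KK/HlJ sham and C3H/HeJ sham) replicate 2 was above replicate 1 for 10 of 10 genes, by a median of 0.33, 0.68 and 1.02 log2 units; of all tested genes, 57.3%, 42.6% and 52.8% were higher in replicate 2 of these groups. The widest gap between replicates was that of Nid1 in KK/HlJ sham, 2.16 log2 units.

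**Figure D2:**
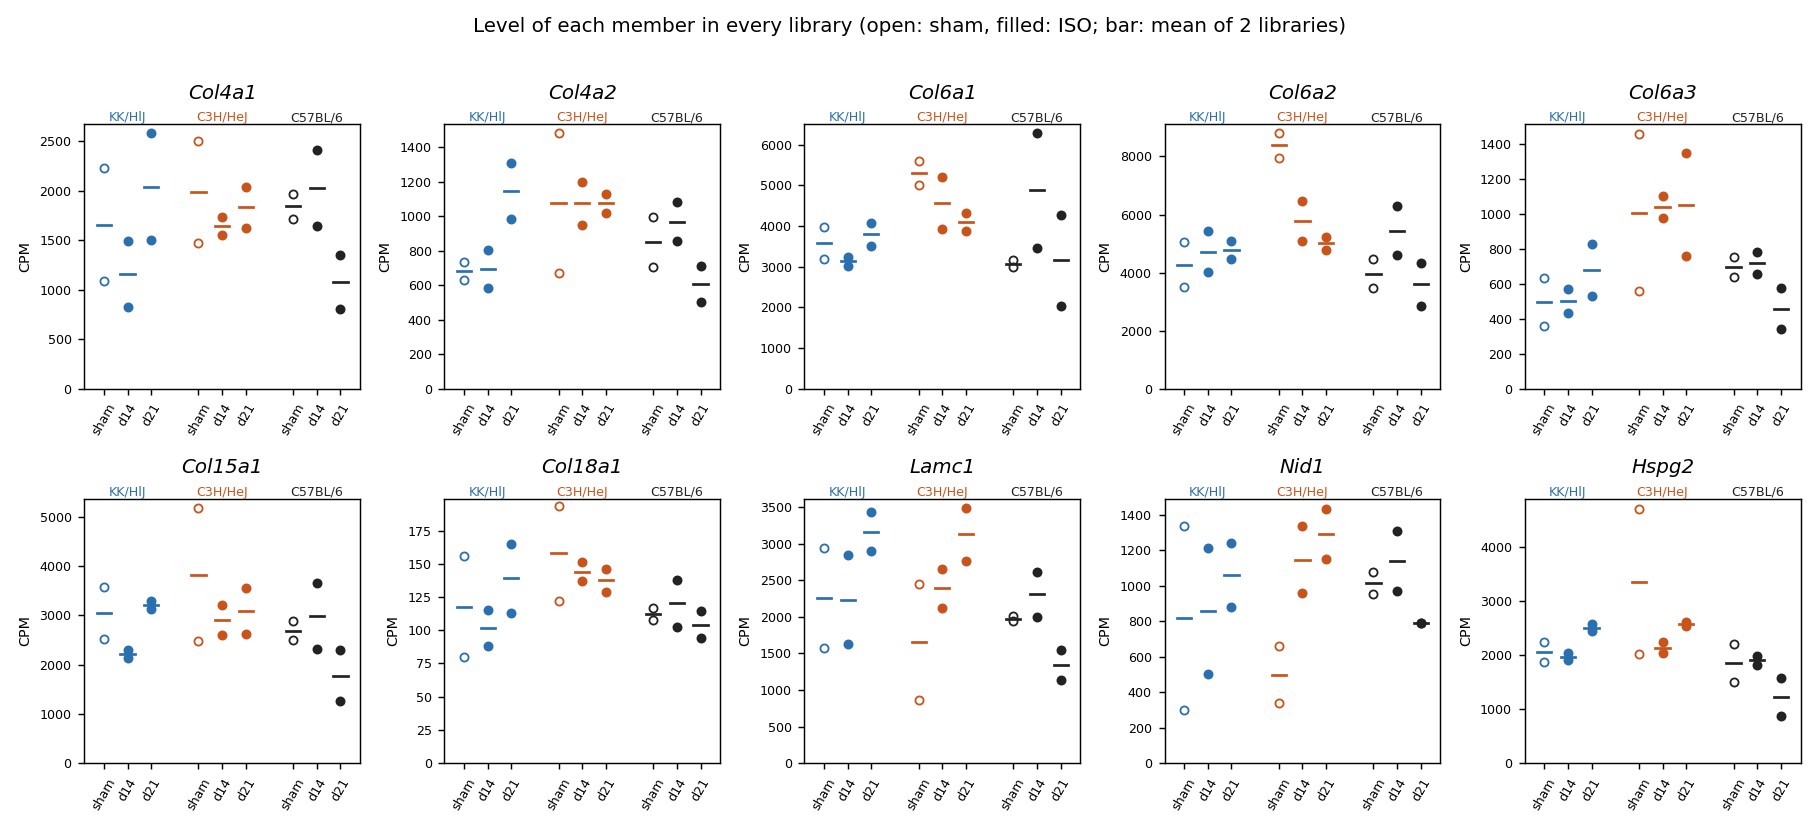
CPM of each gene in every library, with sham (open) and ISO day 14 and day 21 (filled) in each strain and a bar at the mean of 2 libraries. C57BL/6 ISO day 21 holds the lowest library for 7 of 10 genes and C3H/HeJ sham the highest for 6.

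Averaged over the 3 strains and both days, none of the 10 genes passed the test for a difference between ISO and sham. All of the 15762 tested genes gave 9 calls at an adjusted p under 0.05, 0.0571% of them (edgeR quasi-likelihood test with Benjamini-Hochberg adjustment); none of the 10 genes had an unadjusted p under 0.05, against 6.69% of all genes, and DESeq2 and voom with library quality weights called none of the 10 either. The 10 log2 differences had a median of -0.026, with 5 above 0 and 5 below, where the median of all genes was 0.028 and 52.2% were above 0. In bulk RNA, fewer cells of a type and less RNA per cell cannot be told apart. The widest differences were Nid1 at 0.47 (95% interval -0.12 to 1.07) and Lamc1 at 0.27 (-0.16 to 0.69) on the upper side, and Col15a1 at -0.26 (-0.63 to 0.11), Hspg2 at -0.23 (-0.59 to 0.13) and Col4a1 at -0.21 (-0.61 to 0.20) on the lower. Col6a1 and Col6a3 were at 0.0011 (-0.35 to 0.35) and 0.0010 (-0.43 to 0.43), Col4a2 at 0.078 (-0.29 to 0.44), Col18a1 at -0.053 (-0.43 to 0.33) and Col6a2 at -0.11 (-0.42 to 0.20). The intervals of Col6a1 and Col6a2 thus leave room for differences of up to about 0.42 log2 units in size. The result was the same without the 4 libraries of lowest correlation, where again none was called, while the median moved to -0.23. Averaged over strains at day 14 alone the 10 genes had a median of 0.028 with none called (0.0381% of all genes called), and at day 21 alone -0.057 with none called (0.0444%); both days share the sham libraries.

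**Figure D3:**
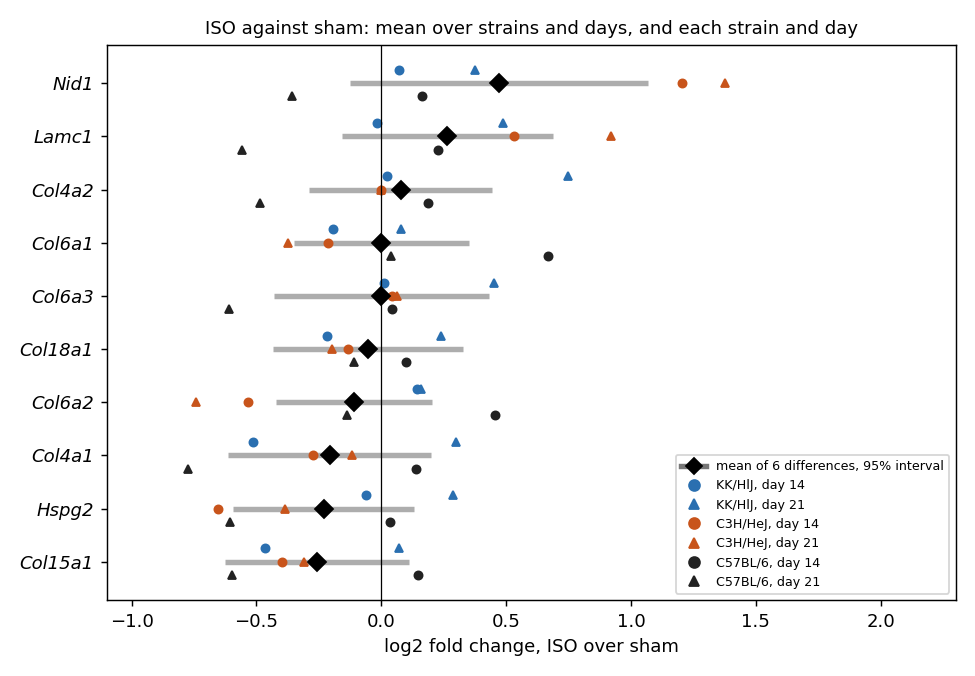
Log2 fold change of ISO over sham for each gene, as the mean over 3 strains and 2 days (diamond, bar 95% interval) and in each strain and day (circles day 14, triangles day 21). Every interval includes 0, and the C3H/HeJ points of Nid1, at 1.20 and 1.38, lie farthest out.

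Collagen IV, the network former, was followed through its ubiquitous chains. Col4a1, the alpha1 chain, measured 1090 and 2231 CPM in sham, 832 and 1494 CPM at ISO day 14 and 1502 and 2584 CPM at ISO day 21 in KK/HlJ. C3H/HeJ libraries measured 1472 and 2505 CPM in sham, 1553 and 1739 at ISO day 14 and 1622 and 2044 at ISO day 21, and in C57BL/6 1969 and 1721 CPM in sham, 2415 and 1649 at ISO day 14 and 809 and 1349 at ISO day 21. Both C57BL/6 day 21 libraries were below both C57BL/6 sham libraries; in the other strains and days ISO and sham overlapped. That difference in C57BL/6 at day 21 was -0.77 log2 units (SE 0.40, edgeR adjusted p = 1) and did not pass.
Col4a2, the alpha2 chain that joins 2 alpha1 chains in the common trimer, measured 996 and 706 CPM in sham, 1079 and 858 at ISO day 14 and 503 and 712 at ISO day 21 in C57BL/6, where ISO and sham overlapped on both days. In C3H/HeJ it measured 668 and 1482 CPM in sham, 948 and 1199 at ISO day 14 and 1018 and 1130 at ISO day 21. In KK/HlJ it measured 631 and 734 CPM in sham, 581 and 806 at ISO day 14 and 983 and 1306 at ISO day 21. Only in KK/HlJ at day 21 were both ISO libraries of Col4a2 above both sham libraries, where 14.4% of all genes had this. The difference was 0.75 log2 units (SE 0.35, edgeR adjusted p = 0.789), which did not pass. The ISO differences of Col4a2 in KK/HlJ and C57BL/6 at day 21 differed by 1.23 log2 units (95% interval 0.19 to 2.27, edgeR adjusted p = 0.749).

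Lamc1 encodes the gamma1 chain, the gamma chain of most laminins. It measured 1574 and 2945 CPM in sham, 1626 and 2840 at ISO day 14 and 2899 and 3434 at ISO day 21 in KK/HlJ. C3H/HeJ libraries measured 862 and 2445 CPM in sham, 2117 and 2661 at ISO day 14 and 2769 and 3487 at ISO day 21. C57BL/6 libraries measured 2010 and 1938 CPM in sham, 2613 and 2002 at ISO day 14 and 1133 and 1552 at ISO day 21. Both day 21 libraries were thus above both sham libraries in C3H/HeJ and below both in C57BL/6. The C3H/HeJ difference was 0.92 log2 units (SE 0.41) and the C57BL/6 difference -0.56 (SE 0.40), with edgeR adjusted p = 0.836 and 1. The 2 ISO differences differed by 1.48 log2 units (SE 0.57, edgeR adjusted p = 0.798), which did not pass. The C3H/HeJ difference rests on which sham library is used: without C3H/HeJ sham replicate 2 it was 1.84 (adjusted p = 0.0452) and the difference from C57BL/6 was 2.39 (adjusted p = 0.0383), so that of all settings run both passed only without the higher C3H/HeJ sham library.

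Nid1 encodes nidogen-1, which binds the laminin gamma1 arm and collagen IV. It measured 299 and 1339 CPM in sham, 506 and 1213 at ISO day 14 and 881 and 1243 at ISO day 21 in KK/HlJ. In C3H/HeJ it measured 337 and 660 CPM in sham, 958 and 1337 at ISO day 14 and 1150 and 1436 at ISO day 21. In C57BL/6 it measured 956 and 1076 CPM in sham, 1308 and 969 at ISO day 14, and 793 in both libraries at ISO day 21. In C3H/HeJ all 4 ISO libraries were above both sham libraries: Nid1 averaged 1148 ± 268 CPM at ISO day 14 and 1293 ± 202 at ISO day 21, against 498 ± 228 CPM in C3H/HeJ sham (SD, n = 2 each). The C3H/HeJ differences were 1.20 log2 units at day 14 (SE 0.55, edgeR adjusted p = 1) and 1.38 at day 21 (SE 0.56, adjusted p = 0.836). Neither passed, and they share the sham libraries. At day 21 the C3H/HeJ difference exceeded that of C57BL/6 by 1.73 log2 units (95% interval 0.072 to 3.40, edgeR adjusted p = 0.801). At day 14, only Nid1 of the 10 genes had both C3H/HeJ ISO libraries above both sham libraries, where 19% of all genes had this. Nid1 and Lamc1 were the only genes of the 10 with both C3H/HeJ day 21 libraries above both sham libraries, where 18.5% of all genes had this. Beside them, the endothelial markers summed to 2141 CPM in replicate 1 and 841 CPM in replicate 2 of C3H/HeJ ISO day 21. In C3H/HeJ sham they summed to 809 and 968 CPM in the same order. The higher sum was thus in the day 21 library with the lower Nid1 and Lamc1 levels. The part of these markers in the differences was not tested.

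Hspg2 encodes perlecan, the large heparan sulfate proteoglycan. It measured 1874 and 2233 CPM in sham, 2030 and 1908 at ISO day 14 and 2438 and 2569 at ISO day 21 in KK/HlJ. C3H/HeJ libraries measured 2017 and 4704 CPM in sham, 2041 and 2234 at ISO day 14 and 2537 and 2615 at ISO day 21. C57BL/6 libraries measured 2208 and 1501 CPM in sham, 1821 and 1983 at ISO day 14 and 863 and 1575 at ISO day 21. The sham value of 4704 CPM in C3H/HeJ was the highest of all 18 and more than the 2017 CPM of its replicate by over 1 log2 unit; the 6 KK/HlJ libraries lay between 1874 and 2569 CPM. In C3H/HeJ at day 14 the difference was -0.65 log2 units (SE 0.35, edgeR adjusted p = 1), between -1.13 and 0.064 with 1 library left out. Only in KK/HlJ at day 21 did ISO and sham not overlap, with both ISO libraries higher by a difference of 0.29 (SE 0.35, edgeR adjusted p = 0.904). Both ISO libraries were above both sham libraries there for 14.4% of all genes.

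Collagens XV and XVIII are close relatives, each with a C-terminal fragment (endostatin in collagen XVIII) known to inhibit vessel growth. Col15a1 ran between 1262 CPM in C57BL/6 ISO day 21 replicate 1 and 5173 CPM in C3H/HeJ sham replicate 2. Its ISO differences were -0.46 at day 14 and 0.070 at day 21 in KK/HlJ, -0.40 and -0.31 in C3H/HeJ, and 0.15 and -0.60 in C57BL/6, with SEs of 0.36. In KK/HlJ at day 14 both ISO libraries (2125 and 2298 CPM) were below both sham libraries (2521 and 3580 CPM), as were 10.1% of all genes, and the difference did not pass (edgeR adjusted p = 0.886). Col18a1 was the least abundant member, with 79.8 to 193 CPM; it overlaps Slc19a1 on the opposite strand, which had at most 574 counts in a library. Its 6 ISO differences lay between -0.22 and 0.24, each within its SE of 0.37.

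Collagen VI was followed through its alpha1, alpha2 and alpha3 chains. Col6a2 measured 3499 and 5058 CPM in sham, 5435 and 4014 at ISO day 14 and 4467 and 5086 at ISO day 21 in KK/HlJ. In C3H/HeJ it measured 7952 and 8810 CPM in sham, 6484 and 5105 at ISO day 14 and 4790 and 5219 at ISO day 21. In C57BL/6 it measured 4457 and 3484 CPM in sham, 6281 and 4621 at ISO day 14 and 2867 and 4349 at ISO day 21. The C3H/HeJ sham libraries were the highest of the 18, and all 4 C3H/HeJ ISO libraries lay below them. At day 14, only Col6a2 of the 10 genes had both C3H/HeJ ISO libraries below both sham libraries, where 15% of all genes had this. The C3H/HeJ differences were -0.53 at day 14 (SE 0.30, edgeR adjusted p = 1) and -0.74 at day 21 (SE 0.31, adjusted p = 0.836), and neither passed. Col6a1 had 3874 and 4317 CPM at ISO day 21 in C3H/HeJ, against 5000 and 5598 CPM in C3H/HeJ sham, a difference of -0.37 (SE 0.34, edgeR adjusted p = 0.886). These were the only 2 of the 10 genes with both C3H/HeJ day 21 libraries below both sham libraries, where 16.6% of all genes had this. In C57BL/6 at day 14 they were the only 2 with both ISO libraries above both sham libraries (12% of all genes), by 0.67 for Col6a1 (SE 0.34) and 0.46 for Col6a2 (SE 0.30), each with an edgeR adjusted p of 1.
Col6a3, the long chain with most of the von Willebrand A domains, measured 358 and 637 CPM in sham, 432 and 571 at ISO day 14 and 533 and 830 at ISO day 21 in KK/HlJ. C3H/HeJ libraries measured 559 and 1459 CPM in sham, 1102 and 977 at ISO day 14 and 762 and 1349 at ISO day 21. C57BL/6 libraries measured 756 and 643 CPM in sham, 786 and 655 at ISO day 14 and 341 and 575 at ISO day 21. By group mean C3H/HeJ was the highest strain in sham and on both days, and ISO and sham were apart only in C57BL/6 at day 21, where the difference was -0.61 (SE 0.42, edgeR adjusted p = 1).

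By strain and day, no gene of the 10 passed the test in any of the 6 comparisons of ISO with sham. The same comparisons called 0.019% of all genes in KK/HlJ at day 21, 0.0127% in C3H/HeJ at day 14, and 0 genes in the other 4, where unadjusted p was under 0.05 for 1.1% of genes in C57BL/6 at day 14, 2.07% in C57BL/6 at day 21, 5.78% in C3H/HeJ at day 21 and 4.74% in KK/HlJ at day 14. Of the 10 genes, unadjusted p was under 0.05 for 3 in C3H/HeJ at day 21 (Lamc1, Nid1 and Col6a2), for 1 in C3H/HeJ at day 14 (Nid1; 3.07% of all genes), for 1 in KK/HlJ at day 21 (Col4a2; 5.23% of all genes) and for 0 in the other 3. DESeq2 called 7, 7, 23, 27, 93 and 69 genes in the comparisons of C57BL/6 day 14 and 21, C3H/HeJ day 14 and 21 and KK/HlJ day 14 and 21, and none of the 10 among them. All 10 log2 differences were above 0 in C57BL/6 at day 14 (median 0.16; 45.2% of all genes) and in KK/HlJ at day 21 (median 0.29; 51.6% of all genes). The KK/HlJ day 21 median was -0.077 without KK/HlJ sham replicate 1 and 0.83 without KK/HlJ sham replicate 2, and the C57BL/6 day 14 median lay between 0.020 and 0.38 without replicate 1 or replicate 2 of C57BL/6 ISO day 14. In C57BL/6 at day 21, 9 of 10 were below 0 (median -0.52; 51.7% of all genes), with Col6a1 at 0.040 the exception. In C3H/HeJ 7 of 10 were below 0 on each day (medians -0.17 and -0.16; 48.5% and 49.8% of all genes), and in KK/HlJ at day 14 6 of 10 were (median -0.039; 50.7% of all genes). These medians changed sign with 1 library left out: the C3H/HeJ medians were 0.21 and 0.32 without C3H/HeJ sham replicate 2, and the KK/HlJ day 14 median was 0.24 without KK/HlJ sham replicate 2. In C57BL/6 at day 21 both ISO libraries lay below both sham libraries for Col4a1, Col6a3, Col15a1, Lamc1 and Nid1, 5 of 10, where 20.7% of all genes did. The pericyte and smooth muscle markers summed to 3254 and 1543 CPM in those ISO libraries and to 7820 and 4540 CPM in C57BL/6 sham; their part in the lower levels was not tested. Set against C57BL/6, the ISO difference of KK/HlJ was lower for 10 of 10 genes at day 14 (median -0.28, 45.4% of all genes) and higher for 10 of 10 at day 21 (median 0.81, all genes 0.18, 55.4% of all genes). By edgeR none of the 10 and 0 of all genes were called, with 3.72% and 6.45% of all genes at an unadjusted p under 0.05 and 26 and 15 genes called by DESeq2; both use the same sham libraries. The day 14 median of this difference was -0.69 without KK/HlJ sham replicate 1 and 0.0053 without KK/HlJ sham replicate 2; the day 21 median was 0.22 with length and GC offsets, and 1.21 without C57BL/6 ISO day 21 replicate 2. The median of C57BL/6 alone at day 21 was -0.25 without C57BL/6 ISO day 21 replicate 1, -0.77 without replicate 2 and -0.12 with length and GC offsets.

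**Figure D4:**
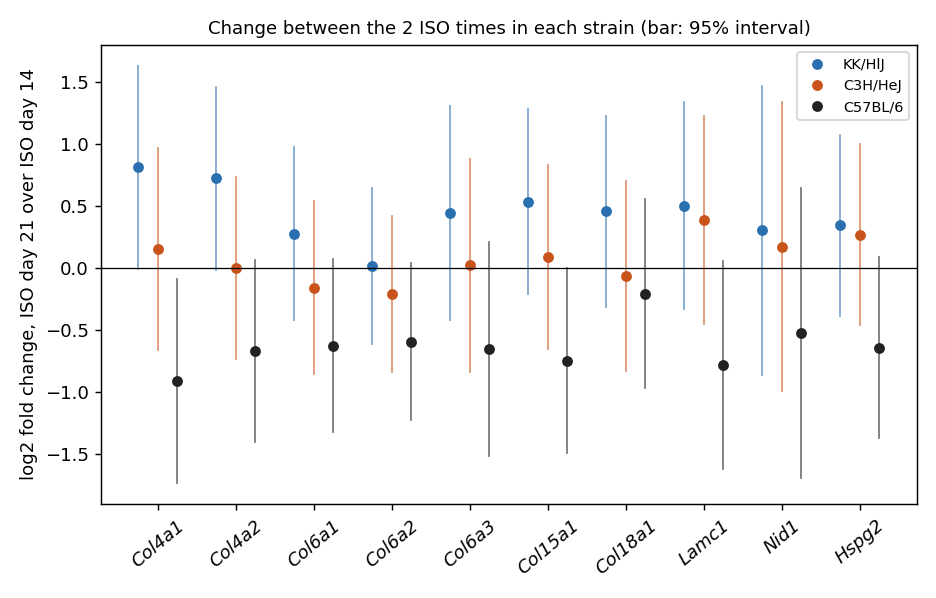
Log2 fold change of ISO day 21 over ISO day 14 for each gene in KK/HlJ, C3H/HeJ and C57BL/6, with 95% intervals. The KK/HlJ points are all above 0 and the C57BL/6 points all below it, and of the intervals only that of Col4a1 in C57BL/6 leaves 0 out.

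Day 21 was also set against day 14, a comparison free of the sham libraries. In KK/HlJ all 10 genes were higher at day 21 (median log2 difference 0.45, 50.9% of all genes above 0), and Lamc1, Col15a1, Hspg2, Col6a1, Col4a1 and Col4a2 had both day 21 libraries above both day 14 libraries, 6 of 10 against 11.3% of all genes. In C57BL/6 all 10 were lower (median -0.65, 51% of all genes below 0), and all but Col6a1 and Col18a1 had both day 21 libraries below both day 14 libraries, 8 of 10 against 15.9% of all genes. In C3H/HeJ 7 were higher and 3 lower (median 0.056, 48.3% of all genes above 0), and 2 were apart, Lamc1 and Hspg2, both higher (13.7% of all genes). The C3H/HeJ median was -0.049 without C3H/HeJ ISO day 21 replicate 2 and 0.29 without replicate 1 of that group. No gene of the 10 and none of all 15762 genes passed in any of the 3 comparisons with edgeR; unadjusted p was under 0.05 for 1.05%, 3.44% and 0.419% of all genes in KK/HlJ, C57BL/6 and C3H/HeJ, DESeq2 called 2, 13 and 0 genes, and none of the 10 was among them. The pericyte and smooth muscle markers differed in C57BL/6 too: all 14 were lower at day 21, with a median of -0.96 (-1.86 to -0.37), 3 at an unadjusted p under 0.05 and none called, and sums of 3254 and 1543 CPM at day 21, against 2026 and 6336 CPM at day 14. Their medians were 0.093 in KK/HlJ and 0.10 in C3H/HeJ, and their part in the differences of the 10 genes was not tested. Of the 10, Col4a1 in C57BL/6 had the widest difference, one of -0.91 (SE 0.40, edgeR adjusted p = 0.903).
The difference between strains in this change was tested after these values were seen. Set against C57BL/6, the KK/HlJ change was higher for 10 of 10 genes, with a median of 1.04 log2 units where 50.3% of all genes were above 0. Col4a1 differed by 1.73 (95% interval 0.56 to 2.89), Col4a2 by 1.39 (0.36 to 2.43), Lamc1 by 1.29 (0.098 to 2.47) and Col15a1 by 1.28 (0.22 to 2.34); each had an edgeR adjusted p of 1, as no gene of the whole table passed by edgeR (0 genes, 4.04% at an unadjusted p under 0.05, 6 called by DESeq2). The pericyte and smooth muscle markers differed in the same direction, with a median of 1.16 over 14 markers (0.068 to 2.68), none called; their part was not tested. The 4 groups behind it hold 8 libraries, and KK/HlJ ISO day 14 replicate 1, KK/HlJ ISO day 21 replicate 1 and C57BL/6 ISO day 21 replicate 1 are among them, named above for low correlations or for the lowest levels. With 1 library left out at a time or another setting, the median of the 10 lay between 0.72 and 1.54. Within strains, the KK/HlJ median was 0.24 without KK/HlJ ISO day 21 replicate 2, and the C57BL/6 median was -0.35 without C57BL/6 ISO day 21 replicate 1 and -1.05 without replicate 2. The C3H/HeJ change was also above that of C57BL/6 for 10 of 10 genes (median 0.68, 48% of all genes above 0). The KK/HlJ change was above that of C3H/HeJ for 10 of 10 (median 0.43, 52.5% of all genes above 0). By edgeR none of the 10 and 0 of all genes were called in either, and these contrasts share groups.

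Strains were compared first in sham hearts. None of the 10 genes passed in KK/HlJ against C57BL/6 (0.0508% of all genes called), in C3H/HeJ against C57BL/6 (0.102%) or in KK/HlJ against C3H/HeJ (0.152%). The difference with the smallest adjusted p against C57BL/6 was that of Col6a2, at 8381 ± 607 CPM in C3H/HeJ sham and 3971 ± 688 CPM in C57BL/6 sham (SD, n = 2 each), 1.08 log2 units (SE 0.31, edgeR adjusted p = 0.476). DESeq2 put the same gene at 1.09 with an adjusted p of 0.0346, past the threshold. Col6a1 (0.79) and Hspg2 (0.86) were also higher in C3H/HeJ sham than in C57BL/6 sham by more than 2 SEs, and neither passed (edgeR adjusted p = 0.947 and 0.945). For Hspg2 the groups overlapped, and the difference was 0.14 without C3H/HeJ sham replicate 2. In KK/HlJ sham, Col6a2 differed from C3H/HeJ sham by -0.97 log2 units (SE 0.31) and Col6a3 by -1.02 (SE 0.42), with edgeR adjusted p = 0.447 and 0.716. For Col6a3 these sham groups overlapped, and its difference was -0.18 without C3H/HeJ sham replicate 2.
A mean over all 3 conditions, chosen after these values were seen, used all 6 libraries of each strain. C3H/HeJ was above C57BL/6 for 9 of 10 genes, Nid1 being the exception, with a median of 0.40 where 49.1% of all genes were above 0. By edgeR the differences were 0.75 for Col6a3 (SE 0.24, adjusted p = 0.263), 0.70 for Hspg2 (SE 0.20, adjusted p = 0.174), 0.55 for Col6a2 (SE 0.18, adjusted p = 0.268) and 0.44 for Col4a2 (SE 0.20, adjusted p = 0.585). None passed, while 0.647% of all genes did; Hspg2 passed under DESeq2 (0.67, adjusted p = 0.0392), voom with library quality weights (0.70, adjusted p = 0.022), no filter on low counts (0.70, adjusted p = 0.0235), without C3H/HeJ sham replicate 1 (0.85, adjusted p = 0.0278) and without the 4 libraries of lowest correlation (0.85, adjusted p = 0.0098), and its difference was 0.46 without C3H/HeJ sham replicate 2. Col6a3 passed with no filter (0.76, adjusted p = 0.0253) and without the 4 libraries (0.92, adjusted p = 0.00851), and Col6a2 passed with voom (0.55, adjusted p = 0.0271). KK/HlJ was below C3H/HeJ for 8 of 10 genes, all but Lamc1 and Nid1 (54% of all genes), with 0.406% of all genes called. Col6a3 differed most between them, by -0.90 (SE 0.24, edgeR adjusted p = 0.175), with adjusted p = 0.0245 by DESeq2, 0.0219 with length and GC offsets and 0.00222 with no filter on low counts. Its difference was -1.08 without C3H/HeJ sham replicate 1 and -0.62 without C3H/HeJ sham replicate 2. Without the latter library, the Col6a3 difference between C3H/HeJ and C57BL/6 was 0.47. KK/HlJ and C57BL/6 had a median difference of 0.058 over the 10 genes, none called (0.273% of all genes). The differences were above 0 for 6 genes and below 0 for 4, where 46.1% of all genes were above 0. Lamc1 was at 0.46 (95% interval -0.022 to 0.95), Hspg2 at 0.41 (-0.0104 to 0.83) and Nid1 at -0.098 (-0.77 to 0.58). Even for Col4a1, at -0.012, the interval ran from -0.48 to 0.46, so this number of libraries leaves wide differences possible.

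Ratios between partner genes cancel any shift shared by a library, and were computed per kilobase after the values above were seen, in 16 tests. Col4a1 stood at 1.69 times the Col4a2 level in the 12 ISO libraries, against 2.08 in the 6 sham libraries (geometric means), a log2 difference of -0.30. It was -0.45 in KK/HlJ, -0.25 in C3H/HeJ and -0.21 in C57BL/6. The exact two-sided permutation test within strains gave p = 0.0202, and 0.148 after Benjamini-Hochberg adjustment over the 16, so it did not pass. ISO and sham overlapped: the ISO ratios lay between 1.39 and 2.18 and the sham ratios between 1.65 and 2.97, with the highest in KK/HlJ sham replicate 2. Without that library the difference was -0.17, and without KK/HlJ sham replicate 1 it was -0.44.
Nid1, the partner of the gamma1 arm, stood at 0.411 of the Lamc1 level in KK/HlJ, at 0.501 in C3H/HeJ and at 0.667 in C57BL/6. KK/HlJ was below C57BL/6 by -0.70 log2 units within conditions (exact permutation p = 0.00926, adjusted p = 0.148) and C3H/HeJ below C57BL/6 by -0.41 (exact permutation p = 0.0278, adjusted p = 0.148). The test has 216 arrangements of the libraries, so 0.00926 is the smallest p it can give for a strain pair. On its own, a strain comparison thus could not pass after adjustment over the 16 tests. The KK/HlJ ratios lay between 0.237 and 0.569, those of C3H/HeJ between 0.338 and 0.629 and those of C57BL/6 between 0.595 and 0.875, so that KK/HlJ and C57BL/6 did not overlap. Without the 4 libraries of lowest correlation the KK/HlJ difference was -0.37. The ratio of Col6a2 to Col6a1 was 1.11 in ISO libraries and 1.18 in sham libraries (geometric means), a log2 difference of -0.085 (exact permutation p = 0.462).

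**Figure D5:**
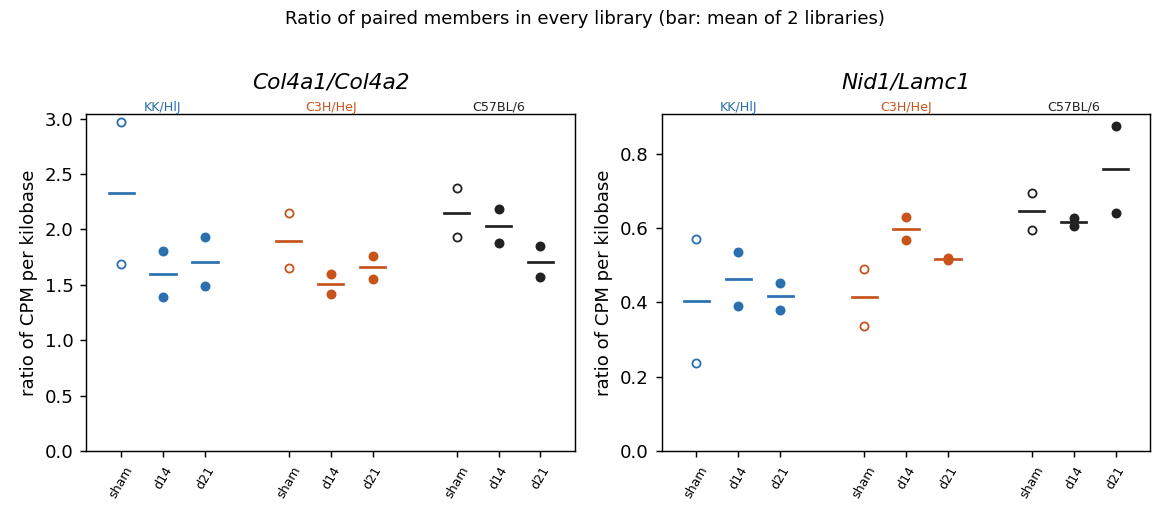
Ratio of Col4a1 to Col4a2 (left) and of Nid1 to Lamc1 (right), each per kilobase, in every library by strain and condition, with a bar at the mean of 2 libraries. The Nid1 to Lamc1 ratios are highest in C57BL/6, and the Col4a1 to Col4a2 ratios of ISO and sham overlap.

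The other genes of the basement membrane were taken from lists chosen with earlier results of these data known, and none of them passed the test in the mean over strains and days either (0.0571% of all genes called). Of the 9 tested genes among 10 other laminin chains, 0 were called (median 0.016); the beta chains partnered with gamma1 were at -0.28 for Lamb1 (SE 0.20, 1014 CPM) and 0.21 for Lamb2 (SE 0.15, 1058 CPM), and Lamb3, at 4.83 CPM, was at 1.91 (SE 1.04). Of 6 tested among 7 other collagen IV and VI chains, 0 were called (median 0.26). Col4a5 was at 0.67 (SE 0.30, edgeR adjusted p = 0.725), Col4a4 at 0.29 (SE 0.24) and Col4a6 at 0.23 (SE 0.21). Of 17 other basement membrane components, 0 were called (median 0.045); Sparc, a collagen-binding matricellular protein, was at 0.41 (SE 0.15, edgeR adjusted p = 0.577), the netrin Ntn4 at 0.48 (SE 0.20) and Smoc2 at -0.36 (SE 0.16). Of 16 receptors, 0 were called (median -0.095); the laminin receptor chain Itga7 was at -0.91 (SE 0.21, edgeR adjusted p = 0.11), Antxr1, which binds collagen VI, at 0.61 (SE 0.19) and Itgb1, the common beta chain, at 0.29 (SE 0.19). Of 23 genes for folding, secretion and crosslinking of collagen, 0 were called (median 0.023). In that group the lysyl hydroxylase Plod2 was at 1.19 (SE 0.29, edgeR adjusted p = 0.167), the crosslinking oxidase Lox at 1.03 (SE 0.33) and the prolyl hydroxylase P4ha3, at 5.04 CPM, at 4.82 (SE 1.47). Itga7 is also made by smooth muscle, whose markers with those of pericytes had a median log2 difference of -0.35 over 14 genes, none called, and sums of 1543 to 6336 CPM in ISO against 2268 to 7820 CPM in sham; their part in it was not tested. No marker of another cell type passed. The median differences were 2.38 for macrophage, -0.15 for endothelial and -0.59 for Schwann and glia markers. They were -0.17 for cardiomyocyte, -0.18 for mesothelial and 0.14 for fibroblast markers. The macrophage markers were near the floor, with 1 to 7 of 10 above 3 counts in sham libraries and 2 to 9 in ISO libraries. Their sums had medians of 22.3 CPM in ISO and 11.7 CPM in sham.

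Likeness of profile was measured as the root mean square distance between log2 CPM profiles over the 18 libraries, each scaled to mean 0 and SD 1, among 10046 other genes with a mean of at least 5 CPM. Among the 45 pairs of the 10 genes the distances ran between 0.51 (Col6a3 and Col4a2) and 1.44 (Nid1 and Col6a2), with a median of 0.83, and the median distance of each member to all genes was between 1.29 and 1.39. Col6a1 was nearest to its partner Col6a2 (0.53) and next to Col15a1 (0.65) and Icam1 (0.65). Col6a2 was nearest to Maged2 (0.44), Col6a1 (0.53) and Nsmf (0.56), Col6a3 to Col4a2 (0.51), Sh2b1 (0.57) and Cap1 (0.57), and Col15a1 to B3gnt9 (0.47), Hspg2 (0.53) and Radil (0.53). Col4a2 was nearest to Copg1 (0.41), Ptgfrn (0.45) and the collagen V gene Col5a1 (0.46), and Col4a1 to Trappc10 (0.48), Vps13d (0.55) and Zfp142 (0.56). Nid1 was nearest to Abca9 (0.36), Atp7a (0.36) and Senp5 (0.36), and Lamc1 to Ldlrad3 (0.36), Svep1 (0.41) and Neo1 (0.43). Hspg2 was nearest to Tbc1d9b (0.38), Zswim8 (0.39) and Fasn (0.44), and Col18a1 to Txndc5 (0.56), Cap1 (0.60) and Ergic1 (0.61). These distances share library depth and the libraries that stood apart, and are given as description.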

How the data were processed

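RNA was taken from sorted Thy1+ heart cells and sequenced as stranded, single-end libraries, per the labels' protocols. The deposited files hold raw read counts per Ensembl gene, 1 file per library; the submitters' processing notes name FastQC, STAR 2.5.3a and edgeR with build mm10. Not given in the sources used here: read counter, annotation and strand setting. Thus reads where genes on opposite strands overlap cannot be assigned with certainty. Reads of all strains are on mm10, a C57BL/6 genome, and mapping differences between strains were not tested.

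From these counts, edgeR 4.0.16 in R 4.3.3 (TMM scaling, quasi-likelihood test, robust) fitted the 9 groups once over the 15762 genes that passed its filter on low counts, and p-values were adjusted over all of them by Benjamini-Hochberg, with calls at an adjusted p under 0.05. Levels of single genes are CPM on TMM-scaled totals, while the sums of cell type markers are CPM on library totals without TMM scaling. Log2 profiles used a prior count of 2. A difference is the fitted log2 fold change with its SE and 95% interval. Alternatives used DESeq2 1.42.0 and limma 3.58.1 (voom), other scalings and filters, and left-out libraries. Scripts were tested on simulated data. Ratios of partner genes were tested by exact permutation within strains or conditions.

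The 10 genes, the lists and the tests were chosen with earlier results of these data known. All 10 are reported; of each other list the 3 genes with the smallest p are named, as none was called, and for each of the 10 genes the 3 closest profiles. Coordinates are of mm10 (GENCODE M21); promoters are from RefSeq.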

Additional observations from a re-analysis of the deposited data

How the results depend on the processing

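The absence of calls among the 10 genes in the mean of ISO against sham held under all alternatives run (scaling by relative log expression, a block for the replicate number, no filter on low counts, length and GC offsets, DESeq2, voom, and leaving out libraries); the smallest adjusted p was 0.0557, without KK/HlJ sham replicate 2. The number of all genes called in that mean, 9 here, was 97 with no filter, 15 with the replicate block, 24 with offsets, 141 without the 4 libraries of lowest correlation and 97 by DESeq2, so the count over all genes rests on the setting; the cause was not tested. For day 14 (6 genes) it was 75, 8, 18, 94 and 75 in the same order, with 2 from only the groups compared, and for day 21 (7 genes) 55, 6, 8, 78 and 45, with 2 from only the groups compared. Same-numbered libraries did not deviate together in general: 36 pairs had a median correlation across genes of -0.016, from -0.37 to 0.36. Still, 13 pairs were above 0.1, and the 4 libraries of lowest correlation were all replicate 1. The replicate number was not taken as a pairing. With it as a block the number of the 10 called stayed 0 in every ISO comparison.

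Single members passed in 5 comparisons under some settings. With 1 library left out the number called lay between 0 and 1 for C3H/HeJ ISO day 21 against sham, for that response against C57BL/6, and for C3H/HeJ against C57BL/6 and KK/HlJ against C3H/HeJ over all conditions. For sham C3H/HeJ against C57BL/6, DESeq2 called 1. For C3H/HeJ against C57BL/6 over all conditions, 2 were called with no filter, 2 without the 4 libraries, 2 by voom and 1 by DESeq2, and for KK/HlJ against C3H/HeJ 1 with no filter, 1 with offsets and 1 by DESeq2; comparisons over all conditions, and of ratios, were chosen after seeing the data.

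Signs of small differences were less stable; the cause was not tested. For the mean over strains and days, leaving out 1 library gave Col4a2 -0.077 to 0.30, Col6a1 -0.11 to 0.074, Col6a3 -0.18 to 0.27, Col18a1 -0.19 to 0.13, Hspg2 -0.39 to 0.0053. There, the sign also changed with the 4 libraries left out (Col4a2 -0.042, Col6a1 -0.048, Col6a3 -0.21), with RLE scaling (Col6a1 -0.0089), with voom (Col6a1 -0.035), with DESeq2 (Col6a1 -0.0089), with the length and GC offsets (Col6a3 -0.13). For ISO against sham at day 14 in C57BL/6, leaving out 1 library gave Col4a1 -0.16 to 0.39, Col4a2 -0.042 to 0.46, Col6a3 -0.0902 to 0.17, Col15a1 -0.22 to 0.44, Col18a1 -0.13 to 0.30, Nid1 -0.066 to 0.36, Hspg2 -0.22 to 0.34. For ISO against sham at day 21 in C57BL/6, leaving out 1 library gave Col6a1 -0.58 to 0.48, Col6a2 -0.46 to 0.13, Col18a1 -0.25 to 0.027. There, the sign also changed with voom (Col6a1 -0.071), with the length and GC offsets (Col6a2 0.21, Col18a1 0.34). For ISO against sham at day 14 in C3H/HeJ, leaving out 1 library gave Col4a1 -0.59 to 0.14, Col4a2 -0.45 to 0.67, Col6a3 -0.48 to 0.88, Col15a1 -0.82 to 0.21, Col18a1 -0.41 to 0.22, Lamc1 -0.022 to 1.45, Hspg2 -1.13 to 0.065. There, the sign also changed with RLE scaling (Col4a2 0.0084), with the replicate block (Col4a2 0.034), with the length and GC offsets (Col4a2 0.027, Col6a3 -0.23), with voom (Col4a2 0.11), with DESeq2 (Col4a2 0.0083), with only the groups compared (Col4a2 0.0013), with the 4 libraries left out (Col6a3 -0.48, Lamc1 -0.022). For ISO against sham at day 21 in C3H/HeJ, leaving out 1 library gave Col4a1 -0.44 to 0.30, Col4a2 -0.45 to 0.67, Col6a3 -0.45 to 0.90, Col15a1 -0.73 to 0.30, Col18a1 -0.48 to 0.15, Hspg2 -0.86 to 0.34. There, the sign also changed with RLE scaling (Col4a2 0.0068), with no filter (Col4a2 0.0010), with the replicate block (Col4a2 0.043), with voom (Col4a2 0.087), with DESeq2 (Col4a2 0.0067), with only the groups compared (Col4a2 0.0019), with the length and GC offsets (Col6a3 -0.39), with the 4 libraries left out (Col6a3 -0.45). For ISO against sham at day 14 in KK/HlJ, leaving out 1 library gave Col4a1 -0.998 to 0.094, Col4a2 -0.23 to 0.24, Col6a2 -0.11 to 0.43, Col6a3 -0.36 to 0.49, Col18a1 -0.64 to 0.34, Lamc1 -0.47 to 0.50, Nid1 -0.70 to 1.53, Hspg2 -0.20 to 0.071. There, the sign also changed with RLE scaling (Col4a2 -0.0093, Col6a3 -0.017), with the length and GC offsets (Col4a2 -0.082, Col6a3 -0.15, Nid1 -0.073), with voom (Col4a2 -0.0395), with DESeq2 (Col4a2 -0.0092, Col6a3 -0.017), with only the groups compared (Col4a2 -0.0020, Col6a3 -0.012), with the 4 libraries left out (Col6a2 -0.35, Col6a3 -0.18, Nid1 -0.16). For ISO against sham at day 21 in KK/HlJ, leaving out 1 library gave Col4a1 -0.14 to 0.91, Col6a1 -0.0702 to 0.25, Col6a2 -0.084 to 0.45, Col15a1 -0.16 to 0.34, Col18a1 -0.17 to 0.80, Nid1 -0.34 to 1.83. There, the sign also changed with the length and GC offsets (Col6a1 -0.0495, Col6a2 -0.11, Col15a1 -0.15), with the 4 libraries left out (Col15a1 -0.13, Nid1 -0.11). Every gene had at least 884 counts in each library, so the number of libraries, 2 a group, limits these values more than depth.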
